A study of Canis lupus familiaris with 10 samples.

Results

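Dog chromosome 14 held 1402 accessible regions among the 59420 regions that 10 ATAC-seq libraries gave in all, from 2 lines of cultured canine B-cell lymphoma named 17-71 and CLBL-1. The regions were found by merging touching or overlapping peaks of the 10 deposited peak lists, so a region is any stretch that at least 1 library marked as accessible. The chromosome was chosen by a readout of the same data, since the lines had been seen to differ more in their share of peaks there than elsewhere, and every contrast between the lines below is therefore a description without a test. The 17-71 cells were collected on day 4 and the CLBL-1 cells, from a diffuse large B-cell lymphoma, on day 2. Each line was grown either as a control or with 100 nM of PR220, a selective inhibitor of the arginine methyltransferase PRMT5. The study's text names its inhibitor C220, which is taken here to be the same compound. There were 3 control libraries (1, 2 and 3) and 2 PR220 libraries (4 and 6) of 17-71, and 2 control libraries (2 and 3) and 3 PR220 libraries (4, 5 and 6) of CLBL-1. Line and day of collection cannot be told apart, each line stands for a single tumor, and the labels do not say whether libraries of a group came from separate cultures. The study calls its ATAC-seq experiments biological triplicates and removed outlier samples without naming them in the sources used here, so the p-values below measure only the spread between the libraries that remain. The B-cell identity of the lines was not checked, because no gene annotation of the files' genome build was used here.

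ATAC-seq relies on a transposase that cuts and tags DNA not wrapped in nucleosomes, so dense fragments mark promoters, enhancers and other open elements. PRMT5 places symmetric dimethyl marks on arginines of histones and of splicing proteins. Several of its histone marks are known to repress genes, while the study's text says that another has been shown to support gene expression. Chromosome 14 of the dog carries, in the RefSeq annotation of the UU_Cfam_GSD_1.0 assembly, 392 protein-coding genes, among them the HOXA cluster of developmental transcription factors, the cell cycle kinase gene CDK6, the aryl hydrocarbon receptor gene AHR, the interferon regulatory factor gene IRF5 and the imprinted genes PEG10 and MEST.

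In 17-71 the chromosome carried 1120, 909 and 801 peaks in control libraries 1, 2 and 3, and 564 and 723 peaks in PR220 libraries 4 and 6. In CLBL-1 it carried 310 and 325 peaks in control libraries 2 and 3, and 353, 355 and 297 peaks in PR220 libraries 4, 5 and 6. The lowest 17-71 library thus held more chromosome 14 peaks than the highest CLBL-1 library. Whole libraries also differed in the number of peaks, between 22076 and 44378 in 17-71 and between 23082 and 27247 in CLBL-1, so shares of a library's own peaks were used from here on. The files carry peaks and not reads, and the sequencing depth behind each list is unknown.

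The chromosome held 2.60% ± 0.0772 of the peaks in 17-71 and 1.32% ± 0.0429 in CLBL-1 (SD, n = 5 each). The libraries ranged from 2.52% to 2.72% in 17-71 and from 1.29% to 1.39% in CLBL-1, and the lines did not overlap. The ratio of the mean shares was 1.97, the highest of the 39 chromosomes. Chromosomes 34, 31 and 27 came next, with ratios of 1.5, 1.4 and 1.36, and chromosome 29 stood at the other end with 0.686. Measured in covered bases, the chromosome took 2.57% ± 0.0926 of the accessible sequence in 17-71 and 1.22% ± 0.0728 in CLBL-1 (SD, n = 5 each).

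**Figure D1:**
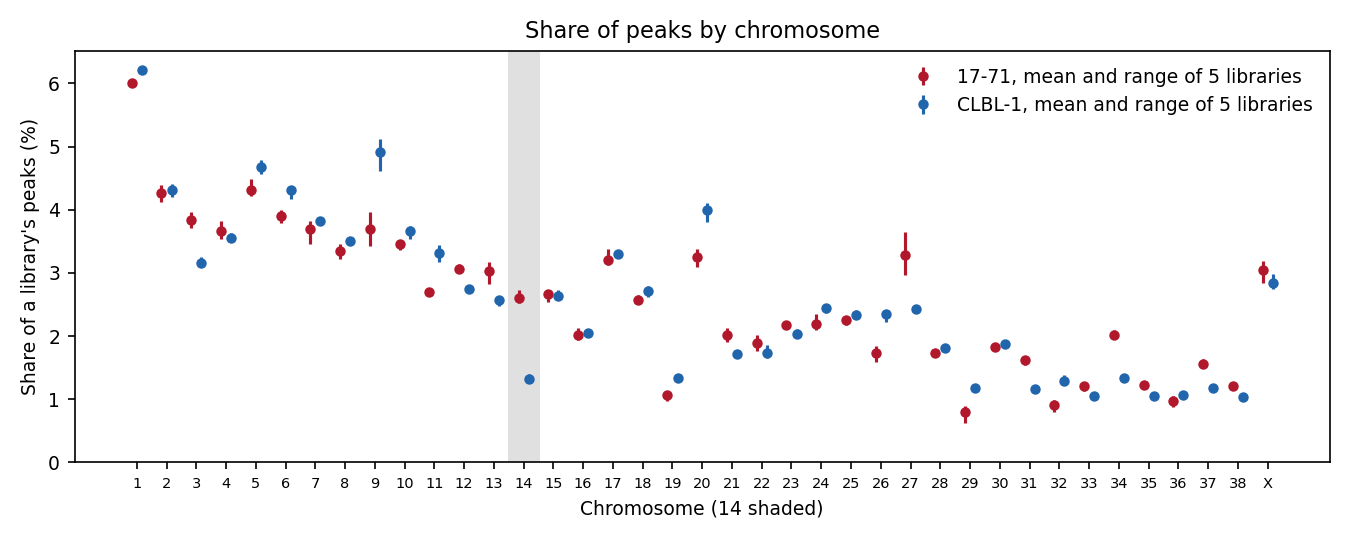
The share of each library's peaks (%, y axis) on each chromosome (x axis); points are means of 5 libraries and bars run from the lowest to the highest library of a line. On chromosome 14, shaded, 17-71 sits at 2.60% and CLBL-1 at 1.32%, and the bars do not meet.

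The fold of peaks on the chromosome went the other way from peak number. Fold enrichment is the caller's ratio of fragment pileup to local background. Its median over chromosome 14 peaks was 3.98, 3.36 and 3.51 in the 17-71 controls and 3.86 and 3.54 in the PR220 libraries of that line. In CLBL-1 it was 4.73 and 4.41 in the controls and 4.46, 4.30 and 4.71 in the PR220 libraries. Every CLBL-1 library was above every 17-71 library. Set against the median over all other chromosomes of the same library, chromosome 14 peaks stood at 0.973 ± 0.00986 in 17-71 and at 1.09 ± 0.0197 in CLBL-1 (SD, n = 5 each), so the chromosome's median fold was below that of the rest of the genome in 17-71 and above it in CLBL-1. Without windows 42 to 45, described below, the ratio was 0.98 to 1.02 in the 17-71 libraries and 1.07 to 1.12 in CLBL-1, so the lower value in 17-71 rested on those windows. The CLBL-1 ratio was the second highest of the 39 chromosomes. The −log10 p of a peak, which grows with its number of fragments as well as with its fold, behaved differently, with a median on chromosome 14 of 0.956 ± 0.01 times that of other chromosomes in 17-71 and 0.857 ± 0.025 times in CLBL-1 (SD, n = 5 each).

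Peak width differed less. The median width on chromosome 14 was 862 ± 105 bp in 17-71 and 902 ± 41.9 bp in CLBL-1 (SD, n = 5 each), and the libraries of the lines overlapped. Relative to other chromosomes the peaks were narrower in both lines, at 0.979 ± 0.00715 times in 17-71 and 0.946 ± 0.0186 times in CLBL-1. The merged regions had a median width of 1004 bp against 1079 bp elsewhere, with quartiles at 669 and 1455 bp, and 38 of the 1402 (2.71%) reached 3000 bp against 3.70% elsewhere.

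The widest region, of 6290 bp at chr14:47281044-47287333, had a peak in 9 libraries and none in 17-71 PR220 library 4. Its fold lay between 3.02 and 3.87 in the other 17-71 libraries and between 3.32 and 4.19 in CLBL-1. The next, of 4984 bp at chr14:39461267-39466250, was called in all 5 libraries of 17-71, at a fold of 2.04 to 2.72, and in none of CLBL-1. The third, of 4893 bp at chr14:360789-365681, was called in all 10 libraries at a fold of 1.72 to 2.42. By fold the widest regions were thus not the strongest. The second and the third had a fold under the chromosome's median in each library that carried them. The −log10 p of these regions read differently. That of the third was 12.4 to 25.3 in 17-71, above chromosome medians of 7.75 to 10.3. The first was also above its library's median wherever called in 17-71, the second only in control library 2. In CLBL-1 the first and the third lay on both sides of the medians. The third lies near chr14:354225-357148, described below, and the part of that neighbour in its local background was not tested.

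The regions called in all 10 libraries show what the lines had in common. There were 148 of them, 10.6% of the chromosome's regions, against 15.4% of regions over the whole genome, and their median width was 1622.5 bp. The one with the largest lowest fold, chr14:354225-357148, had folds of 10.5, 9.62 and 9.18 in the 17-71 controls and 11.1 and 10.1 with PR220. In CLBL-1 it had folds of 11.3 and 10.0 in the controls and 11.1, 11.2 and 10.8 with PR220. The lines overlapped there, and its −log10 p of 3213 to 8398 was far above that of other named regions. The next 2 were short, 433 bp at chr14:21896010-21896442 and 621 bp at chr14:567567-568187, with folds of 7.59 to 11.7 and of 6.83 to 9.62, and again the lines overlapped. Of the 3, 2 lie within the first 1 Mb of the chromosome.

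Over these 148 regions the fold was higher in CLBL-1 than in 17-71 in 120 (81.1%), with a median ratio of 1.15 (quartiles 1.04 and 1.30), against 71.4% and 1.11 on the other chromosomes. The −log10 p of the same 148 regions gave the opposite order. It was higher in CLBL-1 in 59 (39.9%), with a median ratio of 0.892 (quartiles 0.587 and 1.17), whereas on the other chromosomes it was higher in CLBL-1 in 66.3% of shared regions, with a median ratio of 1.35. Only chromosome 27 had a lower ratio of −log10 p, 0.822, and chromosomes 34 and 31 followed at 0.90 and 0.994. Within a library, shared regions of chromosome 14 had a median −log10 p 1.11 to 1.28 times that of shared regions elsewhere in 17-71 and 0.677 to 0.793 times in CLBL-1. In absolute terms the median −log10 p of the 148 regions was 34.5, 21.7 and 19.5 in the 17-71 controls and 14 and 15.9 with PR220. In CLBL-1 it was 14.5 and 16.2 in the controls and 20.5, 18.6 and 13.0 with PR220. The libraries of the lines overlapped in these medians, while the ratios to other chromosomes did not overlap.

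Most regions of the chromosome belonged to 17-71 alone. Of the 1402 regions, 956 (68.2%) had a peak in at least 1 library of 17-71 and in none of CLBL-1, 116 (8.27%) the reverse, and 330 (23.5%) in at least 1 library of each line, against 44.9%, 18.3% and 36.9% on the other chromosomes. Regions seen in a single library numbered 340 (24.3%, against 20.7% over the genome) and had a median width of 529 bp, against 531 bp on the other chromosomes. By the strict rule of a peak in every library of one line and in none of the other, 247 regions (17.6%) were found only in 17-71 against 10.9% over the genome, and 34 (2.43%) only in CLBL-1 against 6.76%. Since these counts restate the contrast by which the chromosome was chosen, nothing is read from them beyond their size.

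The strongest regions called in 17-71 alone had folds well above the line's median. At chr14:17046174-17046999 the fold was 9.0, 7.12 and 7.13 in the controls and 6.49 and 6.74 with PR220. At chr14:16285798-16286872 it was 9.25, 5.66 and 6.71 in the controls and 7.51 and 7.89 with PR220. At chr14:40316776-40318127 it was 6.12, 5.94 and 6.05 in the controls and 5.44 and 5.83 with PR220. In the first and the third every control library lay above every PR220 library, and in the second the treatments overlapped. All controls lay above all PR220 libraries in 16.1% of the 448 chromosome 14 regions called in all 5 libraries of 17-71. Over the genome this held for 17.3%. None of the 3 named regions had a peak in any CLBL-1 library. All 3 were still called in the 5 libraries of 17-71 when the peaks were restricted to those whose −log10 p reached 10.

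Strong regions of CLBL-1 alone existed as well. A region of 514 bp at chr14:35960854-35961367 had folds of 7.40 and 6.69 in the controls and 7.75, 7.15 and 7.66 with PR220. A region at chr14:13612630-13613991 had folds of 5.97 and 5.92 in the controls and 6.45, 6.21 and 6.23 with PR220. The neighbouring chr14:13784143-13784882 had folds of 7.20 and 5.82 in the controls and 9.16, 5.81 and 6.84 with PR220. The 2 last regions lie in window 14 of the chromosome, where CLBL-1 held a larger mean share of peaks than 17-71. In the second of the 3 regions the PR220 libraries lay above the controls, by less than 1 unit of fold, and in the other two the treatments overlapped. Such an order was seen at 12.1% of the chromosome's 223 regions called in every CLBL-1 library, and at 8.35% over the genome.

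How often a region of one line was also found in the other depended on its strength. Regions called in all 5 libraries of 17-71 were ranked by their mean −log10 p over the genome and split into quartiles. On chromosome 14, 16.9% of the 130 weakest, 22.2%, 32.4% and 61.4% of the 114 strongest also had a peak in all 5 libraries of CLBL-1. On the other chromosomes the shares were 34.7%, 44.4%, 58.0% and 73.4%, so chromosome 14 lay lower in each quartile and the gap was smallest among the strongest regions. In the other direction, regions of all 5 CLBL-1 libraries were recovered in all 5 libraries of 17-71 more often on chromosome 14, in 48.6%, 52.8%, 81.4% and 92.7% from the weakest quartile to the strongest, against 24.5%, 35.5%, 55.5% and 83.6% elsewhere. Over all strengths, 33.0% of the 448 regions of 17-71 were recovered, the lowest value of the 39 chromosomes, and 66.4% of the 223 regions of CLBL-1.

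**Figure D2:**
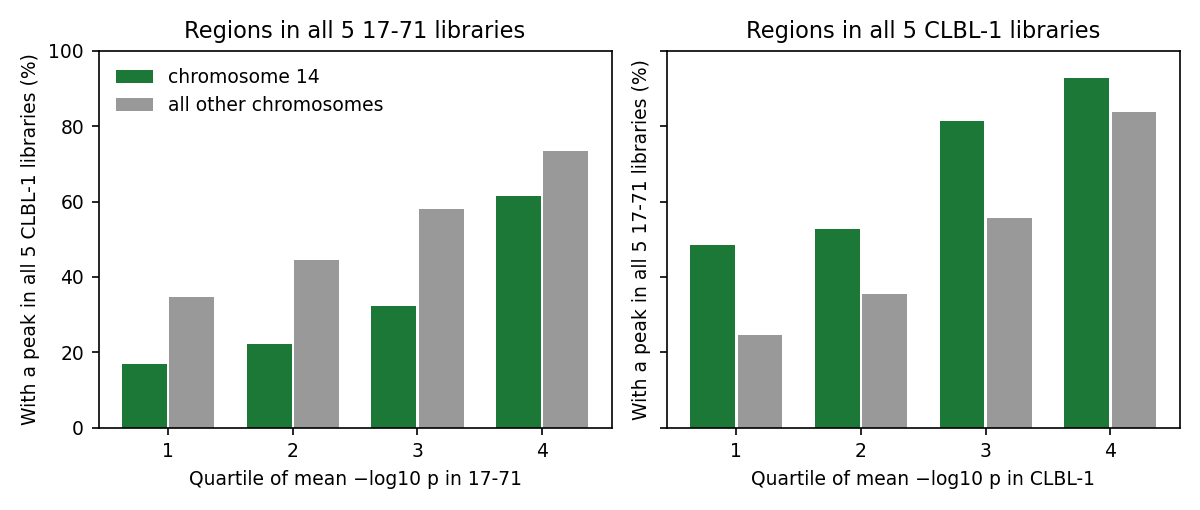
Regions called in all 5 libraries of 17-71 (left) or of CLBL-1 (right), split into quartiles of mean −log10 p in that line (x axis, 1 weakest); bars give the percentage with a peak in all 5 libraries of the other line on chromosome 14 and on all other chromosomes. Chromosome 14 is lower in each quartile on the left (16.9% to 61.4%) and higher in each on the right (48.6% to 92.7%).

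Along the chromosome the regions were placed by their midpoint into 61 windows of 1 Mb, numbered from the first base. A window held a median of 21 regions and between 3 and 60. The share of peaks was given per 1000 of a library's peaks. In 44 windows (72.1%) every 17-71 library had a larger share than every CLBL-1 library, which held for 29.4% of windows over the genome. The reverse held in 0 windows of the chromosome and in 22.1% over the genome, and the lines overlapped in the other 17. The mean was higher in CLBL-1 in 6 windows, so the difference between the lines ran along most of the chromosome and was not even.

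The 3 windows with most regions were also the 3 with the largest gap between the lines. Window 43 (chr14:42000001-43000000) held 60 regions and 53, 43 and 40 peaks in the 17-71 controls, 32 and 41 in the PR220 libraries, 10 and 10 in the CLBL-1 controls and 9, 11 and 10 in the PR220 libraries. Window 40 (chr14:39000001-40000000) held 59 regions and 56, 44 and 42 peaks in the 17-71 controls, 29 and 31 with PR220, and 9 to 11 in the CLBL-1 libraries. Window 44 (chr14:43000001-44000000) held 55 regions and 44, 37 and 35 peaks in the 17-71 controls, 33 and 35 with PR220, and 7 to 11 in CLBL-1. Per 1000 peaks, the means in 17-71 and CLBL-1 were 1.34 and 0.404 in window 43, 1.27 and 0.410 in window 40, and 1.20 and 0.360 in window 44. The 5 windows from 40 to 44 together held 253 regions, 18.0% of the chromosome, 75 of the 247 found only in 17-71 and 23 of the 148 found in all 10 libraries.

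In 17 windows the lines overlapped. Window 37, one of these, held 52 regions, 9 of them in all 10 libraries, with a mean share of 0.791 in 17-71 and 0.803 in CLBL-1, the highest CLBL-1 value of the chromosome. Windows 14 and 33 had larger means in CLBL-1, 0.513 against 0.377 and 0.470 against 0.335, and also overlapped. These windows show that the lower number of peaks in CLBL-1 was not spread evenly along the chromosome.

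At the sparse end, window 25 (chr14:24000001-25000000) held 3 regions, and windows 10 and 58 (chr14:9000001-10000000 and chr14:57000001-58000000) held 5 each. Windows 25, 50, 58 and 61 had no peak in any CLBL-1 library and 2 or 3, 1 to 4, 3 or 4, and 7 to 13 peaks in the 17-71 libraries. The longest stretch without any CLBL-1 peak, chr14:23730405-25842201, measured 2112 kb and held 13 regions of 17-71, 5 of them in all 5 libraries. In 17-71 the longest stretch without a peak lay within it and measured 1144 kb. Beyond the last CLBL-1 peak, which ended at base 59886834, 17-71 had a further 16 regions, 7 of them in all 5 libraries, up to base 60965866.

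**Figure D3:**
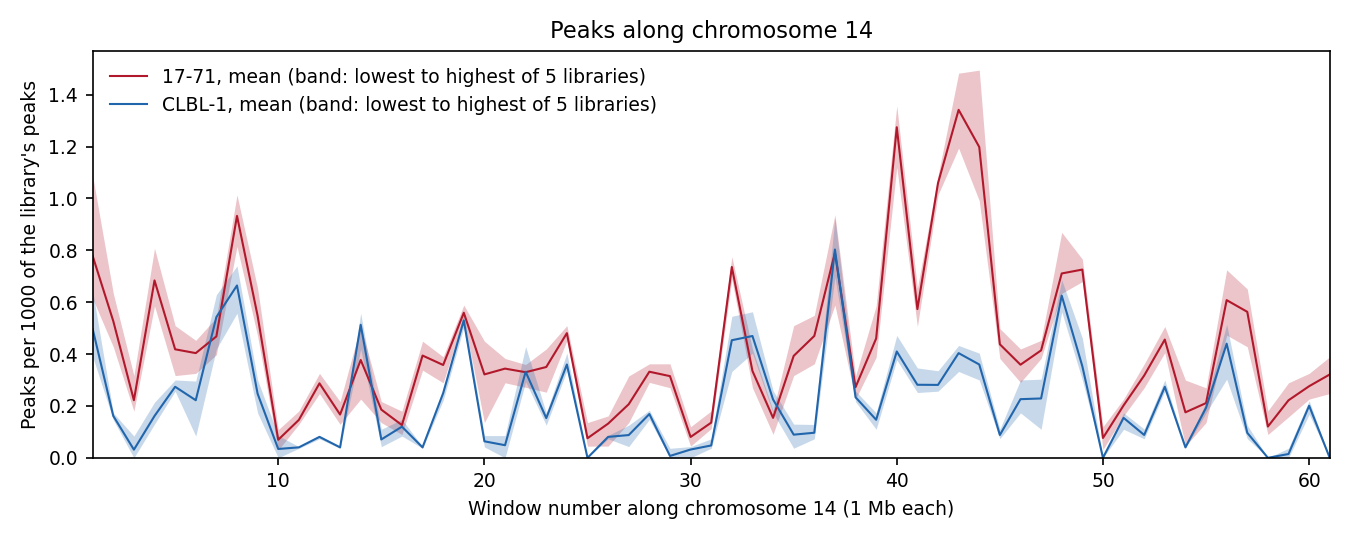
Peaks per 1000 of a library's peaks (y axis) in the 61 windows of 1 Mb along chromosome 14 (x axis, window number); lines are means of 5 libraries of a line and bands run from the lowest to the highest library. The lines part most in windows 43, 40 and 44, where 17-71 reaches 1.34, and meet in windows such as 37, at 0.791 and 0.803.

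A second feature of 17-71 stood out along the chromosome and was singled out after its values were seen. In windows 42 to 45 the peaks of 17-71 were many but had low fold. Copy number was not measured here, and its part in the number and the fold of these peaks was not tested. Their median fold was 3.35, 2.71 and 2.77 in the controls and 3.01 and 2.69 with PR220, against 4.07, 3.43 and 3.58 and 4.02 and 3.66 on the rest of the chromosome. It was thus 17.7% to 26.4% lower in each of the 5 libraries, a mean of 2.91 ± 0.276 against 3.75 ± 0.279 (SD, n = 5). The −log10 p of the same peaks was not lower, with a median of 13.5, 10.2 and 9.91 in the controls and 8.0 and 8.36 with PR220 against 10.1, 8.84 and 9.08 and 7.68 and 8.17 on the rest of the chromosome. In CLBL-1 the median fold in these windows was 4.66 ± 0.497 against 4.51 ± 0.194 elsewhere on the chromosome (SD, n = 5 each), higher in 3 libraries and lower in 2.

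The low fold had edges on both sides. From 41 to 41.5 Mb the median fold of the 17-71 libraries was 2.66 to 3.58, and from 40.5 to 41 Mb, just before it, 3.12 to 4.68. From 44.5 to 45 Mb it was 2.44 to 3.07, and from 45 to 45.5 Mb, just after it, 3.23 to 4.37. Each of the 5 libraries was lower on the inner side of both edges, with 5 to 29 peaks in each of these pieces. Among the 951 windows of the genome with at least 10 peaks in each 17-71 library, ranked by median fold, windows 45, 44, 43 and 42 were the 11th, 15th, 19th and 22nd from the lowest, with means of 2.75, 2.81, 2.91 and 3.01 against a median of 3.78 over all 951. Peaks with a fold below 3 made up 30.8% to 69.5% of the peaks in these windows in the libraries of 17-71 and 4.09% to 20.7% on the rest of the chromosome. In CLBL-1 none of the 25 to 32 peaks per library in them had a fold below 3. Such peaks were also rare on the rest of the chromosome in CLBL-1, at 0.355% to 4.64%, so their absence from these windows says little. Without the 4 windows, the chromosome held 2.21% ± 0.0843 of the remaining peaks in 17-71 and 1.21% ± 0.0468 in CLBL-1 (SD, n = 5 each), so most of the gap between the lines lay outside them.

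**Figure D4:**
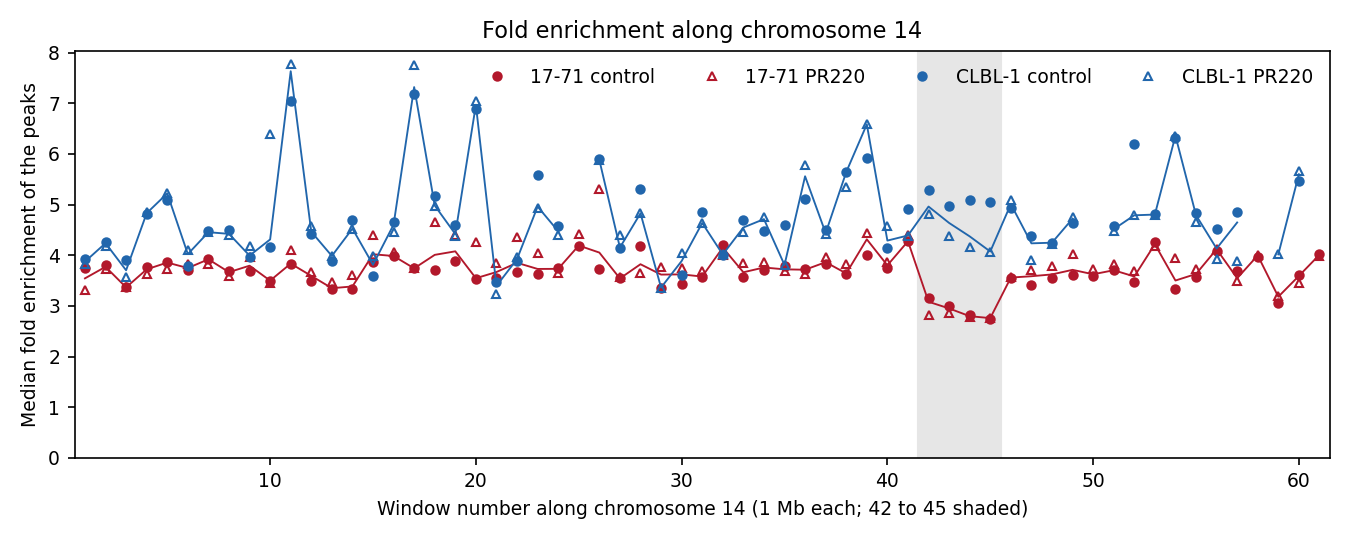
Median fold enrichment of the peaks (y axis) in each window of 1 Mb along chromosome 14 (x axis); filled circles are pooled control libraries, open triangles pooled PR220 libraries and lines both together. In windows 42 to 45, shaded, 17-71 falls to between 2.76 and 3.08 while CLBL-1 stays between 4.07 and 4.96; the highest CLBL-1 window, 11, holds 1 peak in each CLBL-1 library.

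Over all windows with peaks in both lines, the median fold was higher in CLBL-1 in 53 of 57 (93.0%), against 84.7% of such windows over the genome. The 17-71 values ran from 2.76 in window 45 to 4.31 in window 39 and the CLBL-1 values from 3.36 in window 29 to 7.63 in window 11. The median width was larger in CLBL-1 in 30 of the 57 (52.6%), against 61.4% over the genome. Window medians of width ran from 613 to 1234 bp in 17-71 and from 400 to 1829.5 bp in CLBL-1.

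Gene names could be given for few regions. A supplementary list of the study, held only in part and ordered by its own treatment comparison, names a gene for 9 chromosome 14 regions, and the absence of other genes from it says nothing about them. Of these, 6 lie inside protein-coding genes. A region of 1347 bp inside UBE2H (chr14:6915500-6916846), a ubiquitin-conjugating enzyme, had a fold of 4.36, 3.18 and 3.68 in the 17-71 controls, no peak in the PR220 libraries of that line, and a fold of 2.92 to 3.73 in 4 of the 5 CLBL-1 libraries, all but control 2. Regions inside GRM3, a metabotropic glutamate receptor, and CYP51A1, an enzyme of cholesterol synthesis, were called in 2 and 1 libraries of 17-71 and in none of CLBL-1. A region upstream of a long noncoding RNA gene (ENSCAFG00000037528, chr14:31523758-31526806) was called in all 5 libraries of 17-71, at a fold of 4.88, 4.56 and 4.34 in the controls and 4.51 and 3.88 with PR220, and in none of CLBL-1.

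The other 3 genes lie in or beside the windows where 17-71 was densest. A region inside HNRNPA2B1, an RNA-binding protein gene (chr14:39505437-39506326), was called at a fold of 2.22 and 2.31 in 17-71 controls 2 and 3 and in no other library. Within the low-fold stretch, a region inside CRHR2, a receptor of the corticotropin-releasing hormone family (chr14:43407688-43409984), had a fold of 2.36, 2.23 and 2.08 in the controls and 2.26 in PR220 library 4, and a region inside PPP1R17, a phosphatase regulator (chr14:44200844-44202120), had 2.56 and 2.13 in controls 1 and 2 and 2.40 and 2.77 with PR220. None of the 3 had a peak in CLBL-1. In UU_Cfam_GSD_1.0, 32 protein-coding genes stand between HNRNPA2B1 and CRHR2, among them CBX3, a heterochromatin protein, SKAP2, an adaptor of immune signaling, the HOXA genes and EVX1, and NOD1, a sensor of bacterial cell walls. The 6 genes stand in the same order there as in the files' build, but which regions belong to which neighbour was not analysed.

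PR220 was then compared with control within each line, which the choice of the chromosome did not use. In 17-71 the chromosome 14 share of peaks was 2.52%, 2.72% and 2.59% in the controls and 2.55% and 2.62% with PR220, and the treatments overlapped (difference −0.0275 percentage points, exact two-sided permutation p = 0.9). In CLBL-1 it was 1.30% and 1.39% in the controls and 1.31%, 1.30% and 1.29% with PR220, again with overlap (difference −0.049 percentage points, exact two-sided permutation p = 0.3). The width of the chromosome's peaks relative to other chromosomes changed by 0.000567 in 17-71 (p = 0.9) and by −0.0256 in CLBL-1 (p = 0.2) in the same exact test. Their relative fold changed by 0.00166 in 17-71 (p = 1) and by 0.0086 in CLBL-1 (p = 0.7), also by exact permutation. The smallest p such a test can give with these group sizes is 0.1, and after Benjamini-Hochberg adjustment over the 6 tests every exact p was 0.9 or 1. The effects on the share did not differ detectably between the lines (17-71 minus CLBL-1, 0.0215 percentage points, exact permutation within lines p = 0.85). The same difference was 0.0262 for the relative width (exact permutation p = 0.17, adjusted over the 3 measures 0.51) and −0.00694 for the relative fold (exact permutation p = 0.76, adjusted 0.85). In CLBL-1, the relative width was 0.953 and 0.971 in the controls and 0.941, 0.948 and 0.920 with PR220, the single measure of the 3 in which the treatments did not overlap.

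**Figure D5:**
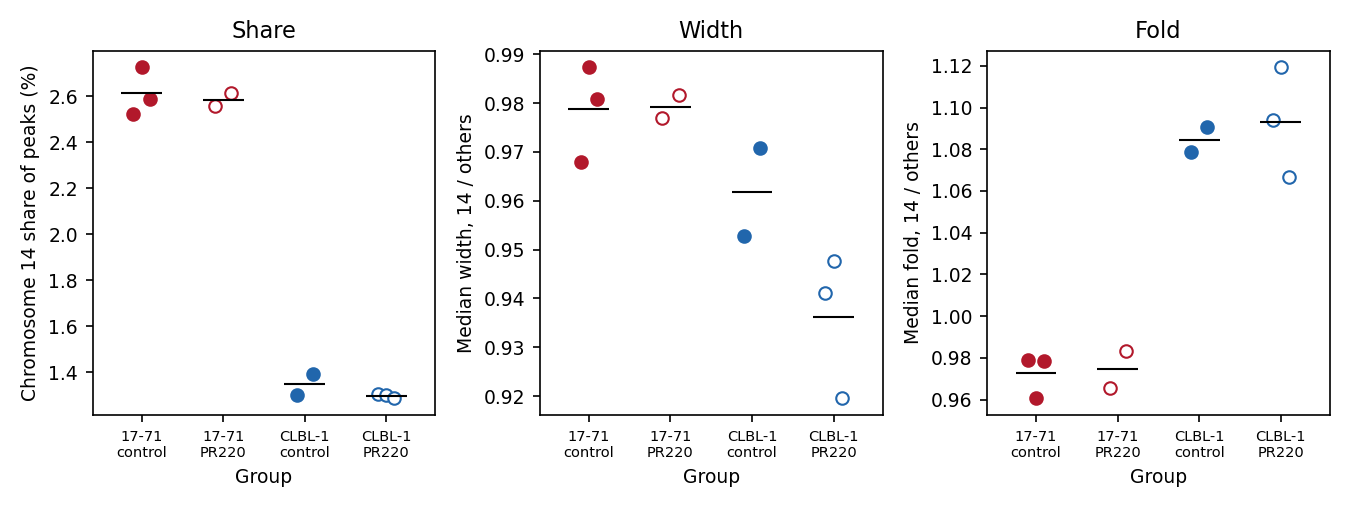
One point per library (filled, control; open, PR220) and group means (bars) for the chromosome 14 share of peaks (%), and for the median width and median fold of its peaks divided by those of all other chromosomes of the same library; the y axes do not start at 0. The treatments overlap in each panel for 17-71 and, for CLBL-1, in share and fold but not in width (0.953 and 0.971 against 0.920 to 0.948).

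Region by region, 102 regions were called in all 3 controls of 17-71 and in neither PR220 library of that line (7.28%), which held for 5.69% of regions over the genome. The reverse was seen at 4 regions (0.285%) against 0.173%. A 17-71 peak was present at 91.7% of the chromosome's regions, against 82.0% over the genome, which raises such shares on the chromosome. With peaks merged within 17-71 alone, the 102 lost regions were 7.93% of the line's regions, against 6.94% over the genome. The 4 gained were then 0.311%, against 0.215%. Every 17-71 control list was longer than every PR220 list of that line, and when each library was cut to its 20000 peaks of largest −log10 p, 18 regions were lost and 18 gained, each 2.05% of the chromosome's regions in those lists, against 1.74% and 1.59% over the genome. In CLBL-1, 6 regions were lost (0.428%) against 0.273% over the genome, and 8 were gained (0.571%) against 0.936%. Only 31.8% of the chromosome's regions had a CLBL-1 peak, against 54.6% over the genome, which lowers such shares on the chromosome. With peaks merged within CLBL-1 alone, the 6 lost regions were 1.34% of the line's regions, against 0.497% over the genome. The 8 gained were then 1.79%, against 1.73%, so the order turned for the gains. Leaving out a library can only keep or raise such counts. Without 17-71 PR220 library 6 the lost regions were 229 (16.3%, against 13.8% over the genome), and without control library 3 they were 183 (13.1%, against 9.78%). Among regions with a 17-71 peak these were 229 and 183 of 1286, against 8176 and 5813 of 48704 over the genome. The gained regions of 17-71 were 12, 37 and 36 without control library 1, PR220 library 4 and PR220 library 6 (0.856%, 2.64% and 2.57%, against 0.64%, 1.76% and 1.5%). Among regions with a 17-71 peak these were 12, 37 and 36 of 1286, against 380, 1048 and 889 of 48704. In CLBL-1 the lost regions were 17 and 19 without control libraries 2 and 3 (1.21% and 1.36%, below 1.51% and 1.5%). The order against the genome thus turned over all merged regions. Among regions with a CLBL-1 peak it did not turn. There the counts were 17 and 19 of 446, against 897 and 889 of 32440 over the genome. The lost regions were 10 without PR220 library 5 (0.713%, against 0.555%), where the order did not turn. The gained regions of CLBL-1 were 13, 24 and 21 without control libraries 2 and 3 and PR220 library 6 (0.927%, 1.71% and 1.5%, against 2.44%, 2.14% and 2.62%). Among regions with a CLBL-1 peak these were 13, 24 and 21 of 446, against 1450, 1272 and 1555 of 32440. By that base the chromosome was lower without control library 2, higher without control library 3 and close to the genome without PR220 library 6.

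The 102 regions lost in 17-71 were spread over 42 windows with at most 7 in a window, and 26 of them (25.5%) had a peak in CLBL-1, 12 in all 5 libraries of that line. A peak in CLBL-1 was as frequent, at 25.7%, among all 1286 chromosome 14 regions of 17-71, and it was found at 42.6% of the lost regions over the genome. Peaks in all 5 CLBL-1 libraries were found at 11.8% of the 102, 14.7% of the 1286 and 21.5% of the lost regions over the genome. The 3 with the highest lowest −log10 p were chr14:39627752-39630332, with a fold of 3.66, 3.39 and 3.69 in the controls, chr14:39546764-39549120, with 3.89, 3.79 and 3.97, and chr14:48513682-48516354, with 3.69, 3.18 and 2.96. Their −log10 p in the controls was 8.93 to 12.7, where the caller's limit was 5, and 2 of them lie in window 40. The second also had a peak in CLBL-1 control library 3. The 3 named gains, at chr14:345512-345927, chr14:11222850-11224764 and chr14:32372970-32373600, had folds of 2.23 to 3.85 and a −log10 p of 5.16 to 6.83 in the PR220 libraries. None was kept when a −log10 p of at least 10 was required.

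In CLBL-1, the lost regions of highest lowest −log10 p were chr14:21288772-21290250, with folds of 3.97 and 3.87 in the controls, chr14:45138330-45139010, with 4.92 and 4.01, and chr14:50604250-50606393, with 4.16 and 3.75. The last was also called in all 5 libraries of 17-71. Of all 6 lost regions, 2 (33.3%) had a peak in 17-71, against 56.2% of the lost regions of CLBL-1 over the genome. The gained regions were chr14:5872972-5874200, with folds of 4.65, 4.31 and 5.55 in the PR220 libraries, chr14:7217361-7220434, with 4.24, 3.90 and 4.04, and chr14:13741165-13742232, with 4.29, 4.11 and 4.07. These 3 had a peak in 5, 4 and 3 libraries of 17-71, and 7 of all 8 gained regions had a peak there. Of the 446 chromosome 14 regions of CLBL-1, 74.0% had a peak in 17-71, and of the gained regions over the genome 55.2%.

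Fold was also compared at regions called under both treatments. Over the 448 regions called in all 5 libraries of 17-71 the median ratio of mean fold, PR220 to control, was 0.965 (quartiles 0.887 and 1.06), and it was 0.960 on the other chromosomes. All controls lay above all PR220 libraries in 72 of them (16.1%) against 17.3% over the genome, and the reverse held in 11 (2.46%) against 4.10%. Over the 223 regions of CLBL-1 it was 0.997 (quartiles 0.948 and 1.06), and 1.0 elsewhere, with the controls above in 19 (8.52%) against 7.50% over the genome and the PR220 libraries above in 27 (12.1%) against 8.35%. In both lines the shares on the chromosome were thus within a few percentage points of the genome's. Window by window, every control library of 17-71 had a larger share than every PR220 library in 10 of 61 windows (16.4%) against 15.3% over the genome, and the reverse held in 15 (24.6%) against 20.0%. In CLBL-1 the controls were above in 7 of the 57 windows with a peak (12.3%) against 11.8%, and the PR220 libraries in 3 (5.26%) against 12.0%. Of the low-fold windows, 43, 44 and 45 were among the 15 in which PR220 libraries of 17-71 had the larger share, and in window 42 the treatments overlapped. Window 44 was also among the 3 in which the PR220 libraries of CLBL-1 were above.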

How the data were processed

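The measurements are ATAC-seq peaks of 10 libraries. Reads had been mapped by the authors to CanFam3.1 (Bowtie2 2.2.4 in the submitters' processing notes) and each library's broad peaks called on their own by MACS2, with a p cutoff that leaves no deposited −log10 p below 5. The deposited lists give for each peak a fold enrichment, a ratio of pileup to local background, and a −log10 p. The MACS2 version was not given in those notes. Groups were taken from the sample labels.

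Touching or overlapping peaks were merged (identical to bedtools 2.31.1 in 59420 of 59420 regions), and 1 bp of overlap sufficed for presence. A region's fold and −log10 p in a library are those of its highest peak. Treatments were compared by exact two-sided permutation within a line (10 arrangements, smallest p 0.1) and between lines within each line (100 arrangements). Merging and presence classes were tested on simulated data. Coordinates are 1-based in CanFam3.1. The members, lists and alternatives were chosen with earlier results of these data known. Named regions were the 3 widest, the 3 of largest lowest fold among those in all 10 libraries or in a single line, and up to 3 lost and 3 gained per line of largest lowest −log10 p; named windows were those with most or fewest regions or the largest gap between lines, and others named were chosen after their values were seen. RefSeq of UU_Cfam_GSD_1.0 was used for gene names and order, and the study's list for gene names. Sequences, motifs and gene lists at regions were not analysed here. Depth is unknown, so a region without a peak can still be accessible. Python 3.11.15, numpy 2.4.6, pandas 2.3.3 and matplotlib 3.10.9 were used.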

Additional observations from a re-analysis of the deposited data

How the results depend on the processing

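The higher share of chromosome 14 peaks in 17-71 than in CLBL-1, 1.28 percentage points between the line means, kept its direction under each alternative: 1.35 for bases covered, 1.0 without windows 42 to 45 (chosen after seeing the data), 1.25 to 1.30 with each library left out, and less than the pooled SD of 0.0624 away for the rest. Leaving out the same windows moved the fold of chromosome 14 peaks relative to other chromosomes from 0.973 to 1.0 in 17-71 and left it at 1.09 in CLBL-1. Libraries of the 2 lines share replicate numbers, and as a replicate block (4 pairs) gave 1.30. The deviations of same-numbered libraries over windows correlated at −0.225 to −0.0168, with no positive value. These 4 correlations, each between different lines, cannot exclude a shared block. Within a line treatment groups share no number, so no pairing by number could be examined there. Windows in which the lines did not overlap numbered 44 of 61 (72.1%, against 51.6% over the genome). They were 26 of 31 with windows of 2 Mb (83.9%, against 54.8%), 37 with −log10 p of at least 10 (60.7%, against 39.1%) and 35 with 20000 peaks (57.4%, against 41.3%). CLBL-1 was the higher line in 0, 0, 3 and 1 of these.

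The treatment effects, none past a threshold, changed sign as follows. With 20000 peaks per library they became 0.0608 (share, 17-71), −0.0225 (width, 17-71) and −0.00448 (fold, CLBL-1); with −log10 p of at least 10, −0.00297 (fold, CLBL-1) and −0.00943 (share, difference between lines); with fold of at least 3, −0.00139 and −0.0321 for the same. With each library left out they ranged from −0.0718 to 0.0288 (share, 17-71), −0.00478 to 0.00487 (width, 17-71), −0.00734 to 0.0107 (fold, 17-71), −0.00441 to 0.022 (fold, CLBL-1) and −0.0247 to 0.0778 (share, difference between lines). Others kept their sign and reached the smallest possible exact p of 0.1: the CLBL-1 share went from −0.049 to −0.08 and its width from −0.0256 to −0.0431 with 20000 peaks, the width to −0.0385 with fold of at least 3, and the 17-71 fold from 0.00166 to 0.0293 with −log10 p of at least 10. The difference between the lines in the share effect also kept its sign with 20000 peaks. It rose from 0.0215 to 0.141 (exact permutation within lines p = 0.11). With each library left out the CLBL-1 share ranged from −0.0952 (without control library 2) to −0.00273 (without control library 3), and the CLBL-1 width from −0.0346 to −0.0166 without the same libraries. The cause was not tested.

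Counts of regions moved as follows. With −log10 p of at least 10, which left 670 regions on the chromosome, there were 68 in all 10 libraries (10.1%, against 12.8% over the genome). There were 79 and 17 in 17-71 or CLBL-1 alone (11.8% and 2.54%, against 6.84% and 7.56%) and 0 gained in 17-71 (against 0.0224%). In CLBL-1, 3 were lost and 5 gained (0.448% and 0.746%, against 0.122% and 1.19%). Shares of CLBL-1 losses and gains here are over all merged regions, fewer of which had a CLBL-1 peak on the chromosome than over the genome. With all peaks merged within CLBL-1, lost and gained regions were 1.34% and 1.79% of the line's regions, against 0.497% and 1.73%. This base was not used with −log10 p of at least 10. Shares of 17-71 losses and gains are over all merged regions too. With all peaks, 91.7% of the chromosome's regions had a 17-71 peak, against 82.0% over the genome. With 20000 peaks per library, which left 877, there were 18 lost and 18 gained in 17-71 and 10 lost in CLBL-1 (2.05%, 2.05% and 1.14%, against 1.74%, 1.59% and 0.716%). Requiring peaks to cover at least 50 percent of a region left 67 in all 10 libraries (4.78%, against 7.33%). With each library left out, lost and gained regions ranged from 115 to 229 and from 4 to 37 in 17-71, and from 9 to 19 and from 9 to 24 in CLBL-1.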

Other observations

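Chromosomes 34, 31 and 27 followed chromosome 14 in the ratio of shares between the lines. Of their regions in all 5 libraries of 17-71, 34.5%, 40.3% and 43.9% were called in all 5 libraries of CLBL-1, against 33.0% on chromosome 14 and 52.6% on all chromosomes other than 14. The median fold of 17-71 peaks relative to other chromosomes was 0.933, 0.951 and 0.894 on chromosomes 34, 31 and 27, and 0.973 on chromosome 14. In CLBL-1 it was 0.985, 1.02 and 0.992 on these 3 chromosomes and 1.09 on chromosome 14. The region at chr14:354225-357148 had a −log10 p of 3213 to 8398 in the 10 libraries, while none of the other regions named under the naming rule passed 92.0.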
